A study of Mus musculus with 7 samples.

Results

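The genes of peroxisome assembly and of peroxisomal lipid oxidation were examined in hearts of fasted mice that lack Krüppel-like factor 15 (KLF15, a DNA-binding regulator of fuel use in muscle and liver). The set had 31 listed genes: 12 peroxins, whose proteins build the organelle and bring enzymes into it, 17 enzymes of its interior (the matrix) and 2 transporters of its membrane. Members were all probe sets that the array's annotation assigned to exactly 1 symbol, that symbol being on the list. This gave 47 of the 22626 probe sets on the array, for 29 of the 31 genes, while Pex10 and Agps had none. By role, 21 probe sets belonged to 11 biogenesis genes, 24 to 16 matrix enzyme genes and 2 to the transporters Abcd2 and Abcd3.

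The genotypes were compared on 7 Affymetrix expression arrays that read the 3′ ends of transcripts, 3 from KLF15-null hearts and 4 from wild-type (WT) hearts. All mice were labelled C57/BL6, male and 3 to 4 months old, and all were fasted for 18 h, so no fed group stands beside them. The labels give no allele for the null mice, and neither the deleted part of Klf15 nor whether WT mice were littermates is given in the sources used here. Nothing in the labels says that the arrays of a group came from separate animals, so p-values measure the spread between these arrays, which may be technical.

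Peroxisomes are small organelles that shorten very long and branched fatty acids and make ether lipid precursors. Their oxidases give off hydrogen peroxide, which catalase inside the organelle breaks down. Peroxins of the membrane first place membrane proteins, receptors then carry matrix enzymes in from the cytosol, and further peroxins recycle the receptors or divide the organelle. In rodents many genes of peroxisomal oxidation are targets of the nuclear receptor encoded by Ppara, which pairs with a retinoid X receptor and is active in fasting.

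Values are log2 signals per probe set. Array medians lay between 6.22 and 6.33, and 13576 probe sets with a mean over the 7 arrays of at least 5.74, the 40th percentile, were tested. The table holds no detection calls, so a group mean below 5.74 may be background, and a difference against it is then only a lower limit. A probe set was called when its limma p, adjusted over all 13576, was under 0.05. Differences are KLF15-null minus WT on the log2 scale. Klf15 itself read 6.52, 6.23 and 6.23 in KLF15-null hearts, against 8.68, 8.98, 8.73 and 9.08 in WT hearts, a difference of -2.54 (SE 0.13, adjusted p = 1.26e-06). Permuting the genotype labels gave an exact two-sided p = 0.0286, the smallest that 35 splits allow, though whether the probes lie in the deleted part is unknown. The arrays go against the label male: Xist lay between 8.57 and 9.94 on its brightest probe set, at the 91.4th percentile, and the 7 probe sets of 4 Y-linked genes lay at or below the 27.3rd. The range of Xist spans arrays of both genotypes. Bright probe sets were brighter on KLF15-null arrays, whose 98th percentile lay between 11.86 and 12.02, against 11.43 to 11.74 on WT arrays.

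Of the 47 member probe sets 37 were above the filter level, for 25 genes, and 10 were below it. Pex26, Abcd2, Acox3 and Ehhadh had no probe set above it. In KLF15-null hearts 10 of the 37 fell (27.0%), 6 rose (16.2%) and 21 were not called. Of all probe sets tested 23.8% were lower and 26.8% higher, so the share of members called lower is near the background and that called higher below it. With each gene represented by its brightest probe set, 8 of 25 genes were lower (32.0%) and 2 higher, against 19.6% lower and 27.4% higher of all 8404 genes. The median difference of the member probe sets was -0.11 and that of all probe sets 0.00. KLF15-null and WT values did not overlap for 18 of the 37 (48.6%), against 53.0% of all probe sets tested. The split of the calls depends on the scaling: quantile normalization gave 16 lower and 5 higher, cyclic loess 14 and 4, and centring on the array median 9 and 7.

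**Figure D1:**
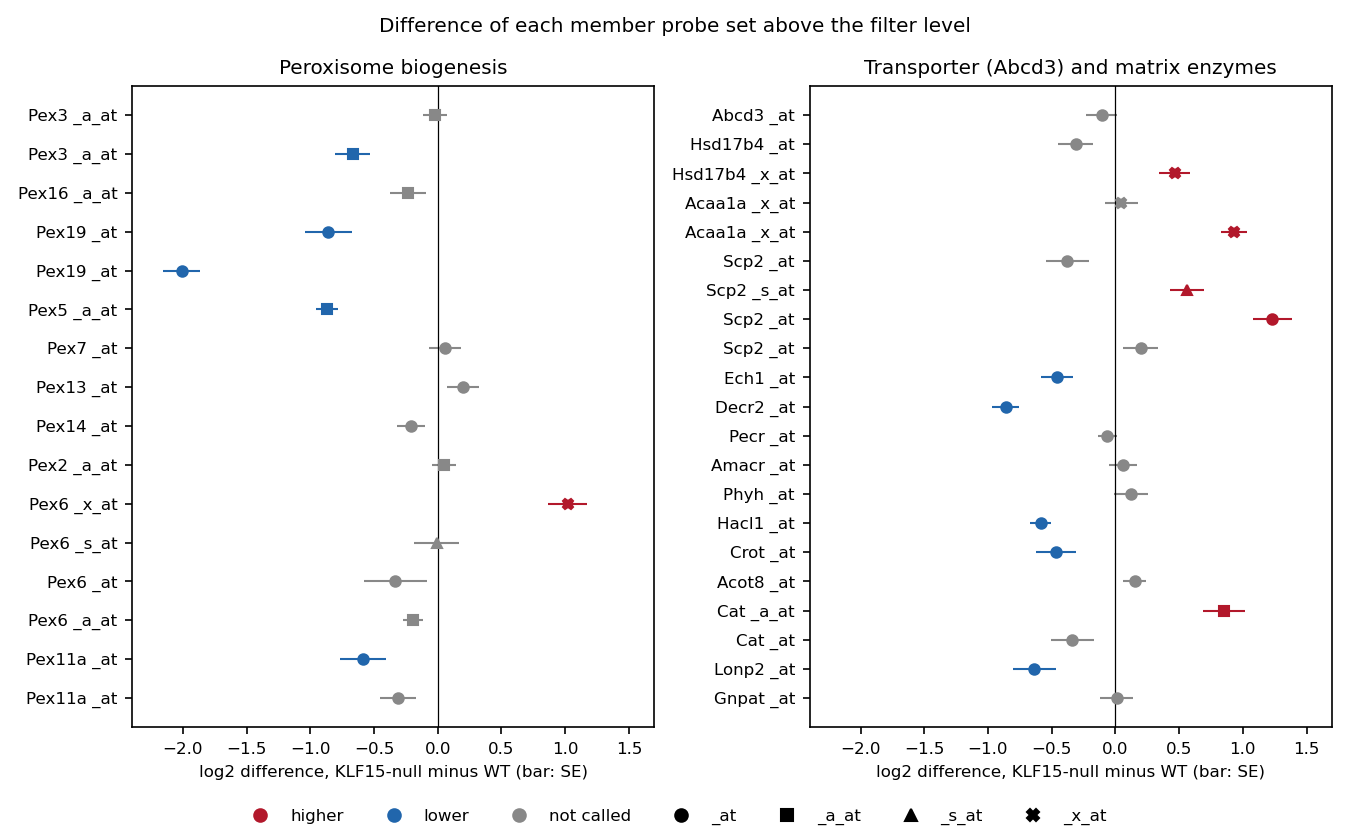
Difference of the 37 member probe sets above the filter level, KLF15-null (n = 3) minus WT (n = 4) on the log2 scale, with the standard error as a bar, for biogenesis genes on the left and the transporter and matrix enzymes on the right. Blue marks the 10 probe sets called lower, red the 6 called higher and grey the 21 not called; the marker gives the kind of probe set by its suffix, and Pex19 at -2.01 and Scp2 at 1.23 are the ends of the range.

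The counts of calls were set side by side for biogenesis genes and matrix enzymes. Among 16 biogenesis probe sets 5 were lower (31.25%) and 1 higher (6.25%), with a median difference of -0.22. Those 5 include both Pex19 sets, and KLF15-null means of the Pex5 set and the dimmer Pex19 set were below the filter level. Among 20 matrix enzyme probe sets 5 were lower and 5 higher (25% each), with a median of 0.03. The background was 23.8% lower and 26.8% higher of all probe sets tested, and 19.6% and 27.4% of all genes. Counted by gene the groups lay closer: 3 of 10 biogenesis genes and 5 of 14 enzyme genes were lower, and 1 of each was higher, with medians of -0.12 and -0.19. The medians are descriptions, and the difference between the groups was not tested. Without the second KLF15-null array the biogenesis median was -0.10 and the enzyme median -0.04. For enzymes the split was 10 lower and 4 higher after quantile normalization, 8 and 3 after cyclic loess and 4 and 6 after median centring, while biogenesis had 5 lower and 1 higher under all 3.

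The kind of probe set also moved with the direction. The suffix _at marks probes specific to a gene, _a_at probes shared by transcripts of 1 gene, _s_at probes shared by several transcripts or genes, and _x_at sets in which some probes can bind unrelated sequences. Of 24 gene-specific member probe sets 8 were lower and 1 higher, with a median difference of -0.31, against 25.0% lower and 20.5% higher of all 8772 gene-specific probe sets tested and a median of -0.03. Of 4 cross-binding _x_at members 3 were higher, where 60.5% of all 1074 such probe sets tested were higher and their median difference was 0.53. Hence 3 of the 6 higher calls among members rest on _x_at probe sets, of Pex6, Hsd17b4 and Acaa1a, and the other 3 belong to Scp2 and Cat. The part of cross-binding in these values was not tested.

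Membrane protein insertion was the role with the most lower calls among peroxins: 3 of 5 probe sets of Pex3, Pex16 and Pex19 were lower, and all 5 had negative differences. For comparison, 23.8% of all 13576 probe sets tested were lower, and 6760 had negative differences. Pex19 gave 2 of the 3 calls, and by brightest probe set only Pex19 of these genes was called. Pex19 encodes the soluble receptor and chaperone for membrane proteins of the organelle and was the brightest biogenesis gene. Its brighter probe set read 9.23, 8.39 and 9.08 in KLF15-null hearts, against 9.76, 9.84, 9.77 and 9.66 in WT hearts. The second KLF15-null array was the lowest, and all 3 lay below all 4 WT values, a difference of -0.86 (SE 0.18, adjusted p = 0.0035). A dimmer Pex19 probe set read 5.75, 5.29 and 5.25 in KLF15-null hearts, against 7.21, 7.42, 7.65 and 7.48 in WT hearts. That difference was -2.01 (SE 0.14, adjusted p = 6.18e-06), 4.03-fold lower in KLF15-null hearts. Their mean of 5.43 was below the filter level, so the fold may be a lower limit. Both probe sets of Pex19 were gene-specific and agreed in direction, but their sizes differed.

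Pex3 encodes the membrane anchor that docks PEX19 with its cargo. A Pex3 probe set read 6.21, 5.57 and 5.99 in KLF15-null hearts, against 6.52, 6.62, 6.65 and 6.59 in WT hearts, with no overlap (difference -0.67, SE 0.13, adjusted p = 0.0024). The brighter Pex3 probe set did not follow it, with 6.90, 7.17 and 6.94 in KLF15-null hearts and 7.02, 7.03, 7.13 and 6.93 in WT hearts (difference -0.02, adjusted p = 0.855). Both are of the _a_at kind, so Pex3 has a lower signal from some of its probes and not from others. Pex16, a membrane peroxin that acts with PEX3, differed by -0.23 (adjusted p = 0.193), and its dimmer probe set was below the filter level.

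Import genes gave 1 lower call. Pex5 encodes the receptor that carries enzymes with the common carboxy-terminal targeting signal into the organelle. It read 5.72, 5.67 and 5.56 in KLF15-null hearts, against 6.44, 6.59, 6.40 and 6.65 in WT hearts (difference -0.87, SE 0.09, adjusted p = 4.52e-05). All KLF15-null values were lower than all WT values, and the KLF15-null mean of 5.65 was below the filter level, so the difference may be a lower limit. Another Pex5 probe set, below the filter level, differed by -0.33 in the fit of all probe sets without a filter (adjusted p = 0.039), a call kept in 3 of 13 other settings of that fit.

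The remaining import machinery showed no call above the filter level. Pex7, the receptor for the amino-terminal signal used by few enzymes, differed by 0.05 (adjusted p = 0.739). At the docking complex Pex13 differed by 0.20 (adjusted p = 0.22), while a dim Pex13 probe set near the bottom of the range differed by 0.21 in the fit without a filter (adjusted p = 0.0436, called in 5 of 13 other settings), and Pex14 by -0.21 (adjusted p = 0.133). Pex2, a subunit of the ubiquitin ligase that marks import receptors for recycling, differed by 0.05 (adjusted p = 0.694). Standard errors of these 4 genes lay between 0.10 and 0.13, and KLF15-null and WT values overlapped for each.

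Pex6 encodes an ATPase that pulls ubiquitinated receptors out of the membrane, and its probe sets disagreed. The _x_at set read 9.02, 9.55 and 9.61 in KLF15-null hearts, against 8.35, 8.38, 8.52 and 8.25 in WT hearts (difference 1.02, SE 0.15, adjusted p = 0.000411). Above the filter level this is the only biogenesis call in the higher direction. The gene-specific set read 8.37, 7.18 and 8.27 in KLF15-null hearts, against 8.31, 8.31, 8.27 and 8.20 in WT hearts (difference -0.33, adjusted p = 0.291). There the second KLF15-null array alone stood apart, and without it the difference was 0.05.

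The other 2 Pex6 probe sets above the filter level did not pass the threshold either. The _s_at set read 8.71, 8.01 and 8.71 in KLF15-null hearts, against 8.59, 8.58, 8.48 and 8.29 in WT hearts (difference -0.01). The _a_at set read 5.72, 5.74 and 5.84 in KLF15-null hearts, against 6.03, 6.04, 5.91 and 5.88 in WT hearts (difference -0.20, adjusted p = 0.0596). Pex26, which anchors the PEX6 complex in the membrane, was below the filter level, with a mean of 5.44 in KLF15-null hearts and 5.46 in WT hearts.

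Pex11a, whose protein bends the membrane before division of the organelle and whose gene is a known Ppara target in rodents, was lower on its brighter probe set. It read 8.29, 7.61 and 8.37 in KLF15-null hearts, against 8.62, 8.71, 8.84 and 8.53 in WT hearts (difference -0.59, SE 0.18, adjusted p = 0.0213). The groups did not overlap, but the second KLF15-null array lay below the other two. Without that array the difference was -0.35 (adjusted p = 0.0243), and the call was lost without WT array 2 (adjusted p = 0.0525) or WT array 3 (adjusted p = 0.0597). The dimmer Pex11a probe set read 7.43, 7.09 and 7.26 in KLF15-null hearts, against 7.46, 7.79, 7.73 and 7.31 in WT hearts (difference -0.31, adjusted p = 0.0864).

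Transporters of the ABCD family carry fatty acyl-CoAs into the organelle. Abcd3, among the most abundant proteins of the peroxisomal membrane, read 10.14, 9.98 and 10.31 in KLF15-null hearts, against 10.28, 10.25, 10.39 and 10.09 in WT hearts (difference -0.11, SE 0.12, adjusted p = 0.488). The groups overlapped. After quantile normalization the difference was -0.39 (adjusted p = 0.00536) and after cyclic loess -0.35 (adjusted p = 0.0101). Abcd2, a transporter of very long and polyunsaturated chains, was near the bottom of the range, with 4.42, 4.42 and 4.37 in KLF15-null hearts and 4.45, 4.40, 4.42 and 4.58 in WT hearts.

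Before the enzyme values, 3 promoters are shown: those of Ehhadh, with the largest difference of any enzyme, of Ech1, the brightest member, and of Cat, the only member whose promoter held the repeat searched for. Each run is the 250 bases before the transcription start in RefSeq's annotation of GRCm38.p6, 5′ to 3′ on the gene's strand. They lie at chr16:21787835-21788084 (minus strand) for Ehhadh, chr7:28825088-28825337 (plus strand) for Ech1 and chr2:103485154-103485403 (minus strand) for Cat. Capitals mark a direct repeat of the letters AGGTCA with 1 base between the copies, the form that Ppara and its partner are known to bind, with at most 2 mismatches, and the letters CACCC or GGGTG, a core of sites known to bind Krüppel-like factors; the repeat and the core share no base in these runs.
Ehhadh: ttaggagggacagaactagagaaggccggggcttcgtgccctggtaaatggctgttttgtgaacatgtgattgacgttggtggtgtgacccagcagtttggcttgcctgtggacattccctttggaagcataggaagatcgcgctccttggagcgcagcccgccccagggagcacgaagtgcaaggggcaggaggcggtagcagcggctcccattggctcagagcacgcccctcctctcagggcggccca
Ech1: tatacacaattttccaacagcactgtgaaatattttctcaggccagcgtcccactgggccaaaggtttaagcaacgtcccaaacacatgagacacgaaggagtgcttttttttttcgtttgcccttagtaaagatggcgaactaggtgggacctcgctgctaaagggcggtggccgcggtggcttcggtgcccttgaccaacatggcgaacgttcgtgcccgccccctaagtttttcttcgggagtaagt
Cat: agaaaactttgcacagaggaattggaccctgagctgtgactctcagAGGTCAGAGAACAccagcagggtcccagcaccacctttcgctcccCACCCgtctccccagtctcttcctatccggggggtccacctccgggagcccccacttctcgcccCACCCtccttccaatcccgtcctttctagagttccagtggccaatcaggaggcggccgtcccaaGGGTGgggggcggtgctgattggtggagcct

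The runs of Ehhadh and Ech1 held neither motif, and that of Cat held both. Promoters of 300 bases, reaching 50 past the start, were found for 26 of the 31 listed genes, 31 promoters in all, and none for Hsd17b4, Pex2, Amacr, Pex19 and Abcd2. On either strand 1 of the 31 (3.23%) held the repeat, that of Cat, starting at position -204, against 3.86% of all 32851 promoters. The letters CACCC or GGGTG stood in 21 of the 31 (67.7%), against 57.5% of all promoters. The members' promoters were richer in G and C, with a median of 58.3% against 52.7%. A match is only a match of letters, and no match says nothing of sites outside this window.

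Among the β-oxidation enzymes the largest difference was that of Ehhadh, the bifunctional enzyme for the middle steps of the cycle, whose gene is a classical Ppara target. It read 4.65, 4.14 and 5.02 in KLF15-null hearts, against 6.71, 6.26, 6.65 and 6.28 in WT hearts. All 3 KLF15-null values lay more than 1 log2 unit below the lowest WT value. Its mean over the 7 arrays put it at the 38.9th percentile, just below the filter, so it does not stand in the counts above. In the fit of all probe sets without a filter the difference was -1.87 (SE 0.20, adjusted p = 7.79e-05), 3.66-fold lower in KLF15-null hearts. Their mean of 4.60 was below the filter level, so the fold may be a lower limit. The call held in all 13 other settings of that fit, with differences from -2.08 to -1.62. Acox3, an oxidase of branched chains, was dim in both genotypes, with means of 4.11 in KLF15-null hearts and 4.43 in WT hearts (difference -0.33, adjusted p = 0.0313 without a filter, called in 6 of 13 other settings), a level at which values may be background.

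**Figure D2:**
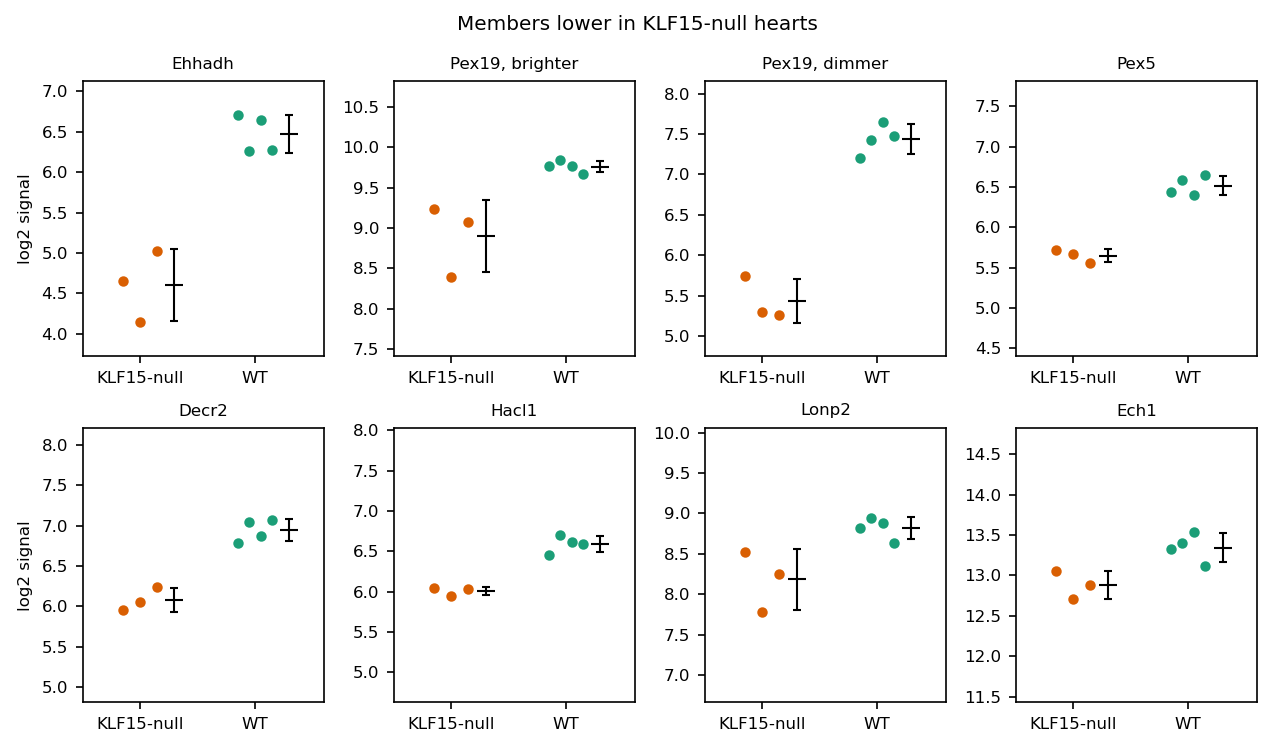
Log2 signal of Ehhadh, both Pex19 probe sets, Pex5, Decr2, Hacl1, Lonp2 and Ech1 on the 3 KLF15-null and 4 WT arrays, each point an array and the bar the mean with its SD; every panel spans the same range of log2 units. KLF15-null values lie below all WT values in each panel, by the widest gap in the dimmer Pex19 probe set and in Ehhadh; Pex3, Pex11a and Crot, also called lower, are left out.

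The other β-oxidation genes, Hsd17b4, Acaa1a and Scp2, had 8 probe sets above the filter level, of which 4 were called higher and 0 lower. Of these 4 calls 2 rest on _x_at sets, and the shares called higher are 60.5% of all _x_at sets and 26.8% of all probe sets tested. The other 2 calls both belong to Scp2. By brightest probe set none of these genes was called (differences -0.31 for Hsd17b4, 0.05 for Acaa1a and -0.38 for Scp2). Hsd17b4, the bifunctional enzyme that takes branched and very long chains through the same middle steps as Ehhadh, read 9.15, 8.74 and 8.94 on its gene-specific probe set in KLF15-null hearts, against 9.15, 9.24, 9.49 and 9.15 in WT hearts (difference -0.31, adjusted p = 0.0791). Its _x_at set went the other way, with 9.12, 9.49 and 9.49 in KLF15-null hearts and 8.79, 8.91, 9.03 and 8.88 in WT hearts (difference 0.46, SE 0.13, adjusted p = 0.0117). The higher call was lost without the third KLF15-null array (adjusted p = 0.0518) and after cyclic loess (adjusted p = 0.07). After cyclic loess the gene-specific set was called lower, at -0.45, and after quantile normalization at -0.43.

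Acaa1a, a thiolase of the last step, had only _x_at probe sets with its symbol alone. The brighter read 9.43, 9.88 and 9.67 in KLF15-null hearts, against 9.66, 9.46, 9.66 and 9.67 in WT hearts (difference 0.05, adjusted p = 0.785), and the groups overlapped. The dimmer read 6.37, 6.34 and 6.65 in KLF15-null hearts, against 5.45, 5.46, 5.69 and 5.48 in WT hearts (difference 0.93, SE 0.10, adjusted p = 6.56e-05). Its WT mean of 5.52 was below the filter level.

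Scp2 encodes a thiolase of branched chains and, from a second start site, a sterol carrier protein. Its brightest gene-specific probe set read 10.71, 10.05 and 10.73 in KLF15-null hearts, against 10.79, 10.85, 11.02 and 10.84 in WT hearts, lower on every array but not past the threshold (difference -0.38, adjusted p = 0.0897). An _s_at set of nearly the same brightness read 10.89, 11.00 and 11.21 in KLF15-null hearts, against 10.25, 10.41, 10.69 and 10.54 in WT hearts (difference 0.56, SE 0.13, adjusted p = 0.00651). Without the second KLF15-null array the difference of the gene-specific set was -0.16 (adjusted p = 0.237). At like brightness, the set called higher thus stands beside a set whose difference was negative but not called.

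Another Scp2 probe set, gene-specific, read 8.30, 8.90 and 8.58 in KLF15-null hearts, against 7.20, 7.52, 7.52 and 7.22 in WT hearts. This was the largest rise among the members, 1.23 (SE 0.15, adjusted p = 0.000134), and it was called under all 15 alternatives. The fourth, also gene-specific, read 6.42, 6.88 and 6.36 in KLF15-null hearts, against 6.41, 6.40, 6.15 and 6.46 in WT hearts (difference 0.20, adjusted p = 0.253). Quantile normalization gave -0.72 (adjusted p = 0.000894) for the brightest set and 0.18 (adjusted p = 0.173) for the _s_at set, so which of the pair was called depends on the scaling.

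**Figure D3:**
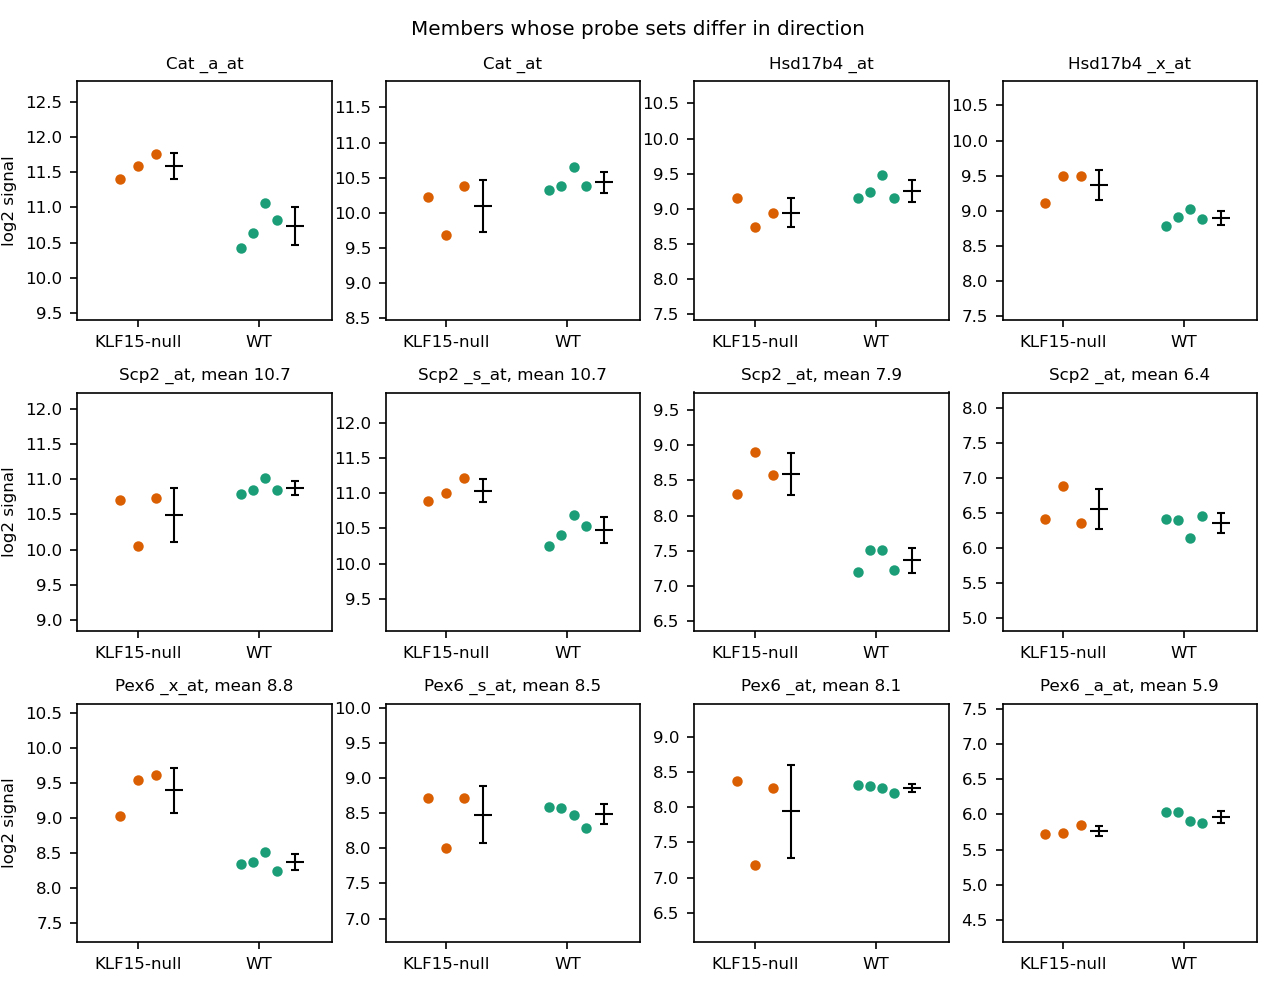
Log2 signal of the probe sets of Cat, Hsd17b4, Scp2 and Pex6 above the filter level on the 3 KLF15-null and 4 WT arrays, each point an array and the bar the mean with its SD; every panel spans the same range of log2 units. Each gene has a probe set that is higher in KLF15-null hearts, such as Cat _a_at at 0.85, beside another whose difference is negative, such as Cat _at at -0.34.

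Auxiliary enzymes, which prepare unsaturated or branched chains for the cycle, gave 2 lower calls of 4 and none higher. The shares over all probe sets tested were 23.8% lower and 26.8% higher. Ech1 encodes an isomerase of dienoyl-CoA found in peroxisomes and mitochondria and was the brightest member, at the 99.7th percentile. It read 13.06, 12.71 and 12.88 in KLF15-null hearts, against 13.32, 13.40, 13.54 and 13.12 in WT hearts (difference -0.46, SE 0.13, adjusted p = 0.0129). The groups were close but did not overlap.

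Decr2, the peroxisomal dienoyl-CoA reductase, read 5.95, 6.05 and 6.24 in KLF15-null hearts, against 6.78, 7.05, 6.87 and 7.07 in WT hearts (difference -0.86, SE 0.11, adjusted p = 0.000123). The groups were far apart relative to the spread within each, with an SD of 0.15 in KLF15-null hearts (n = 3) and 0.14 in WT hearts (n = 4). Pecr, a reductase of enoyl-CoA, differed by -0.06 (adjusted p = 0.505), and Amacr, the racemase that turns branched chains into the form the cycle accepts, by 0.06 (adjusted p = 0.661).

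In α-oxidation, which takes a carbon off chains such as phytanic acid, 1 of 2 enzymes measured was lower, against 23.8% of all probe sets tested. Hacl1, the lyase that cleaves the hydroxylated chain, read 6.04, 5.95 and 6.03 in KLF15-null hearts, against 6.46, 6.70, 6.62 and 6.59 in WT hearts (difference -0.59, SE 0.08, adjusted p = 0.000301). The KLF15-null values lay close together and below all WT values. Phyh, the hydroxylase before it, differed by 0.12 (adjusted p = 0.459), with overlapping groups. After quantile normalization the Phyh difference was -0.28 (adjusted p = 0.016), so its direction flips with the scaling.

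Crot, which makes carnitine esters of shortened chains so that they can leave for the mitochondria, read 6.95, 6.38 and 7.08 in KLF15-null hearts, against 7.20, 7.25, 7.43 and 7.20 in WT hearts (difference -0.47, SE 0.16, adjusted p = 0.032). This call was kept in 8 of 15 alternatives. Without the second KLF15-null array the difference was -0.26 (adjusted p = 0.0536), and without any of the 4 WT arrays the adjusted p lay between 0.0556 and 0.0849. Acot8, a thioesterase that frees chains from CoA, differed by 0.15 (adjusted p = 0.187).

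Cat, encoding catalase, was the brightest enzyme called higher. Its _a_at probe set read 11.40, 11.59 and 11.77 in KLF15-null hearts, against 10.42, 10.63, 11.06 and 10.83 in WT hearts (difference 0.85, SE 0.16, adjusted p = 0.00181), with no overlap. The gene-specific set read 10.23, 9.68 and 10.38 in KLF15-null hearts, against 10.32, 10.38, 10.65 and 10.38 in WT hearts (difference -0.34, adjusted p = 0.129), and was not called. Its difference was -0.13 without the second KLF15-null array (adjusted p = 0.393) and -0.08 with array weights (adjusted p = 0.547), and it was called lower after quantile normalization (difference -0.63, adjusted p = 0.00162) and cyclic loess (difference -0.58, adjusted p = 0.00313). The rise of Cat thus rests on its _a_at set.

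Lonp2, the protease that clears and processes matrix proteins, read 8.52, 7.78 and 8.26 in KLF15-null hearts, against 8.82, 8.94, 8.88 and 8.63 in WT hearts (difference -0.64, SE 0.17, adjusted p = 0.011). All KLF15-null values were lower than all WT values, the second array most. A dimmer Lonp2 probe set was near background, with means of 4.09 in KLF15-null hearts and 3.98 in WT hearts. Gnpat, which starts ether lipid synthesis, differed by 0.01 (SE 0.13, adjusted p = 0.952), and by -0.26 after quantile normalization (adjusted p = 0.0471). The other probe sets below the filter level, dimmer ones of Pex16, Pex6 and Pecr, differed by 0.07, 0.11 and 0.11 and were not called in the fit without a filter.

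Disagreement between probe sets of a gene was about as frequent here as elsewhere on the array. Of 8 member genes with at least 2 probe sets above the filter level, 4 (50%) had differences of both signs, against 1511 of 2748 genes in all (55.0%). The median span between a gene's highest and lowest difference was 1.02 for members and 0.83 for all such genes. The second KLF15-null array was the lowest of the 3 for 21 of 37 members (56.8%), against 44.9% of all probe sets tested. Among the members called lower it was the lowest for 7 of 10. That share was not computed for all probe sets called lower, so whether it is particular to the members is unknown. Without the second KLF15-null array 9 member probe sets were lower and 6 higher.

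Of the 16 called member probe sets 12 kept their call under all alternatives in which they were tested, up to 15 each. The other 4 were those of Pex11a, Hsd17b4, Scp2 (the _s_at set) and Crot described above. The 12 comprise the lower calls of Pex3, Pex5, both Pex19 sets, Ech1, Decr2, Hacl1 and Lonp2. They also include the higher calls of Pex6, Acaa1a, Scp2 and Cat. Some of the 12 had a group mean below the filter level, which may be background. These were Pex5 (5.65) and the dimmer Pex19 set (5.43) in KLF15-null hearts, and the dimmer Acaa1a set (5.52) in WT hearts. These sets, like those called for Pex3, Decr2 and Hacl1, had 14 alternatives, because the stricter filter left them out. Their calls were thus not tested under that filter.

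**Figure D4:**
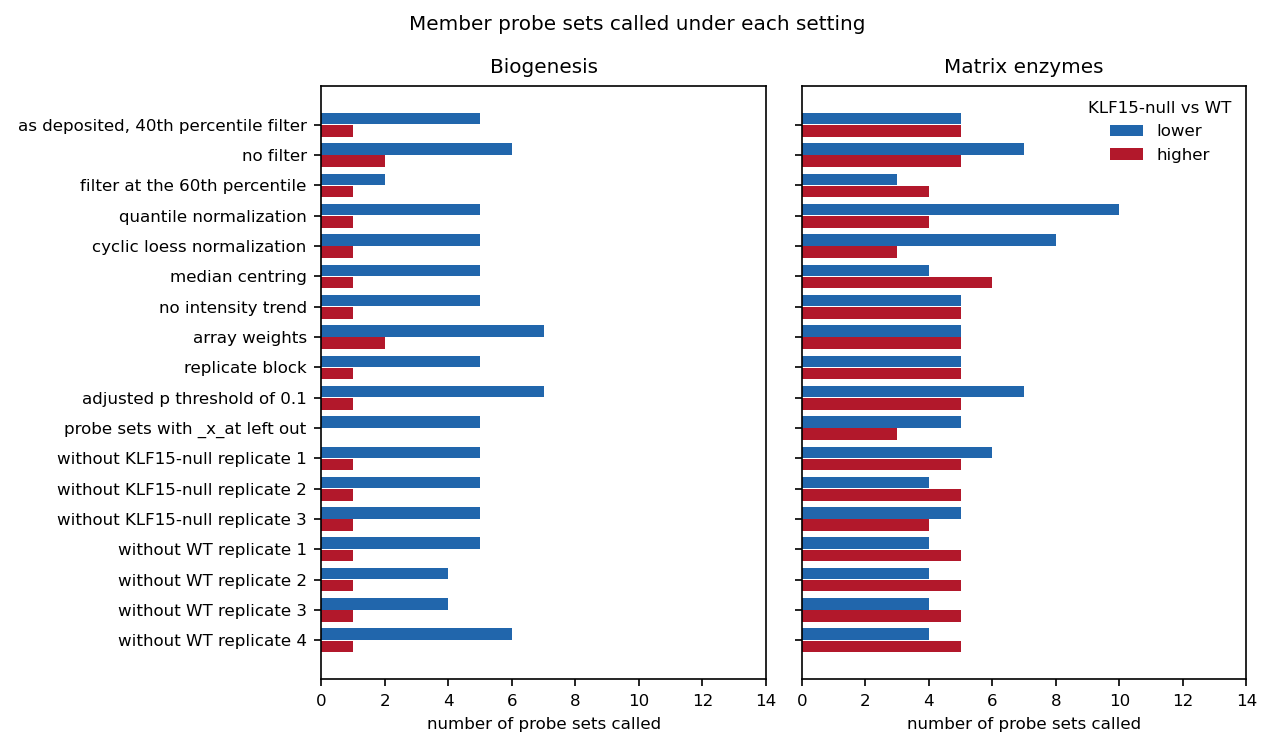
Number of member probe sets called lower (blue) and higher (red) in KLF15-null hearts under each of 18 settings, for biogenesis genes on the left and matrix enzymes on the right. Lower calls of matrix enzymes range from 3 under the stricter filter to 10 after quantile normalization, and those of biogenesis genes from 2 to 7.

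Other peroxisomal genes, from a list of 50 that holds none of the members, were also measured. Of 40 on the array 25 were tested, each counted by its brightest probe set. Of these 10 fell, 4 rose and 11 were not called, with a median difference of -0.18, to be read against the 19.6% lower and 27.4% higher of all genes. Gstk1, a glutathione transferase found in peroxisomes and mitochondria, had the smallest p: it read 7.08, 6.73 and 7.37 in KLF15-null hearts, against 10.09, 10.16, 10.33 and 9.91 in WT hearts (difference -3.06, adjusted p = 1.42e-06). The next among the lower genes were the membrane proteins Pxmp4 (difference -0.83, adjusted p = 0.000112) and Pxmp2 (difference -1.24, adjusted p = 0.000162). Mpv17, a relative of Pxmp2 in the inner mitochondrial membrane, followed (difference -0.73, adjusted p = 0.00018). It is counted among the 10 although its protein is placed in mitochondria.

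Of the 4 called higher, Far1, Mff and Nudt19 had several probe sets, while Gstk1, Pxmp4, Pxmp2 and Mpv17 above had a single set each. Far1, an enzyme of ether lipid synthesis, was higher by 1.15 on an _s_at set (adjusted p = 3.27e-05). Its other sets were below the filter level. Without a filter a gene-specific one was higher (difference 0.64, adjusted p = 0.0116) and another lower (difference -0.54, adjusted p = 0.00325), and the rest were not called. Mff, which recruits the division machinery to mitochondria and peroxisomes, was higher by 1.03 on its brighter _x_at set (adjusted p = 0.000167). A dimmer _x_at set of Mff was higher by 0.72 (adjusted p = 0.000165), and its _a_at set differed by 0.15 (adjusted p = 0.256). Nudt19, a hydrolase of CoA, was higher by 0.29 on its brighter set (adjusted p = 0.0409) and lower on its dimmer one (difference -0.69, adjusted p = 0.000381). Eci2, an isomerase of enoyl-CoA, was higher by 0.36 (adjusted p = 0.0456) and differed by -0.0385 after quantile normalization.

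Regulators of these genes also differed. Ppara read 7.09, 7.68 and 7.10 in KLF15-null hearts, against 9.26, 9.91, 9.40 and 9.10 in WT hearts, the second KLF15-null array being the highest of the 3. Rxrg, a retinoid X receptor of muscle, was lower (difference -0.70, adjusted p = 0.000951), and Rxrb was higher (difference 0.48, adjusted p = 0.0034). Rxra differed by -0.30 on its brighter probe set (adjusted p = 0.102) and was lower on its dimmer one (difference -0.27, adjusted p = 0.0218). The coactivators Ppargc1a (difference -1.80, adjusted p = 1.41e-05) and Ppargc1b (difference -0.91, adjusted p = 0.000985) were lower on their brightest probe sets. Of the other Ppargc1a sets above the filter level, those with differences of -1.52 and -2.31 were called lower, and those with 0.04 (adjusted p = 0.886) and -0.18 (adjusted p = 0.383) were not called. Pparg (difference 0.32, adjusted p = 0.0526) and Esrra (difference -0.31, adjusted p = 0.0504) missed the threshold. Whether any of these moved the members was not tested.

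For the labelled tissue, heart, all 10 cardiomyocyte markers were above the filter level and their summed linear signals were 110438 to 127023 in KLF15-null hearts and 103018 to 116771 in WT hearts, with 1 of the 10 higher. In whole tissue, fewer cells of a type and less RNA per cell cannot be told apart. Counts of markers called are to be read against 19.6% lower and 27.4% higher of all 8404 genes tested. Macrophage and monocyte markers summed to 4048 to 5796 in KLF15-null hearts, against 2178 to 3422 in WT hearts, with 3 of 7 tested higher and Itgam, Fcgr1 and Cx3cr1 below the filter level. For neutrophil markers the sums were 768 to 940 in KLF15-null hearts, against 457 to 580 in WT hearts, with 2 of 5 higher and Mpo below the filter level. Fibroblast markers summed to 4925 to 5675 in KLF15-null hearts, against 5748 to 10451 in WT hearts, with 1 of 8 higher and 2 lower. Endothelial markers (1398 to 2114 in KLF15-null hearts, against 2071 to 2571 in WT hearts) had 3 of 7 lower. Smooth muscle and pericyte markers summed to 10232 to 11601 in KLF15-null hearts, against 6509 to 9641 in WT hearts, with 1 of 6 higher and 1 lower. Fat cell markers summed to 7541 to 8235 in KLF15-null hearts, against 6875 to 8668 in WT hearts, with 1 of 3 lower and Adipoq and Ucp1 below the filter level. Liver markers summed to 117 to 139 in KLF15-null hearts, against 131 to 151 in WT hearts, with 1 of 2 lower and Alb, Apoc3 and Fgb below the filter level. The part of these cells in the differences of the members was not tested.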

How the data were processed

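Heart RNA was hybridised to 7 Affymetrix arrays, 3 KLF15-null and 4 WT by their genotype labels. The values deposited by the authors are on the log2 scale, as read from their range of 3.20 to 14.28; GCOS was used, per the submitters' processing notes, and no source used here gives the summarization or scaling. Genes were named by the platform's annotation. Array medians lay within 0.15, so values were used as deposited, with 0 further columns left unused.

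Probe sets at or above the 40th percentile of the 7-array mean were fitted with limma 3.58.1 in R 4.3.3 (no covariate, intensity trend, two-sided, Benjamini-Hochberg over all kept probe sets, threshold 0.05). The procedure was tried on simulated data with independent noise and far fewer changed probe sets than were called here. That trial therefore says little about data such as these. Probe sets below the 40th percentile were taken from a fit with no filter. A gene was represented by its brightest kept probe set with 1 symbol. Every adjusted p is limma's.

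The members, the role lists, the marker lists and the tests were chosen with earlier results of these data known. Values on every array are given for members with a called probe set, for those whose probe sets differ in direction and for the brightest in each role group; other peroxisomal genes are the 4 with the smallest p in each direction. Alternatives were other filters, scalings, variance models, thresholds and representative probe sets, a replicate block and each array left out; leaving out _x_at sets, and the combinations with no filter, were chosen after seeing the data. No offset was added, as the values are on the log2 scale. A planned description of carboxy-terminal targeting signals was not made, because no protein sequences were at hand. Promoters are RefSeq's for GRCm38.p6. The number of arrays limits the precision.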

Additional observations from a re-analysis of the deposited data

Results flagged for a closer look

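The 47 member probe sets were checked for a WT array far from the other 3 of its group, by the gap to its nearest neighbour as a share of the group's range, with Dixon's critical value for 4 samples as the limit. The limit was passed by 7. Chance alone passes it in about 1 of 20 groups where no values are identical, which does not hold here. The share of all probe sets that pass was not computed, so whether 7 is unusual is unknown. The 3 KLF15-null arrays are too few for this check.

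Pex2 had a share of 1, because WT array 2 read 8.29 and the other 3 WT arrays held the identical value 8.16. Both Acaa1a sets passed, the brighter with 0.966 (WT array 2 at 9.46, the others at 9.66 to 9.67) and the dimmer with 0.898 (WT array 3 at 5.69, the others at 5.45 to 5.48). Pecr passed on its brighter set with 0.857 (WT array 1 at 6.86) and on its dimmer set with 0.891 (WT array 1 at 4.15). Acot8 had 0.982, with WT array 1 at 7.01 and the others at 7.12. The gene-specific Cat set had 0.837, with WT array 3 at 10.65. Values identical on at least a pair of arrays occurred in 19 of the 47 member probe sets (40.4%) and in 47.3% of all probe sets, and they narrow the spread that such a check rests on. Of these 7 sets, only the dimmer Acaa1a set was called in the comparison of genotypes.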

How the results depend on the processing

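With the 60th percentile as filter, 5 member probe sets and 5 member genes were lower, 2 biogenesis probe sets, 3 enzyme probe sets and 3 enzyme genes, because fewer probe sets were tested. Quantile normalization gave 16 lower probe sets and 13 lower genes, 10 and 9 of them enzymes, an enzyme median of -0.21, 2 other peroxisomal genes higher, and reversed Phyh (-0.28), Gnpat (-0.26) and Eci2 (-0.0385). Cyclic loess gave 8 enzyme probe sets lower and 3 higher, an enzyme median of -0.17 and 2 other peroxisomal genes higher. Median centring gave an enzyme median of 0.12 and 2 enzyme genes higher and moved the median of all probe sets by 0.09. Array medians were 6.22 to 6.23 on KLF15-null arrays and 6.31 to 6.33 on WT arrays, and centring added that gap to every difference. Why the medians differ was not tested. Without _x_at sets 3 member probe sets and 1 gene were higher, 0 biogenesis probe sets and genes, and 3 enzyme probe sets, by construction. With gene-specific sets preferred 0 member, biogenesis and enzyme genes were higher. With the set brightest in WT 1 member gene and 0 biogenesis genes were higher, whereas averaging the sets of each gene gave 0 biogenesis and 2 enzyme genes higher. Array weights gave 2 biogenesis probe sets and 2 genes higher, and no filter 2 probe sets.

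Leaving out each array gave 8 to 11 member probe sets lower and 5 to 6 higher, and 2 to 6 other peroxisomal genes higher, against 4 with all arrays: 6 without KLF15-null array 2, 3 without WT array 3 and 2 without any other array. Deviations of arrays with the same replicate number correlated at -0.11, 0.00 and 0.19, so arrays were not paired by number. With the replicate block 10 member probe sets were lower and 6 higher, 2 other peroxisomal genes were higher, and 5768 probe sets were called in all, against 6872 without it. Of the counts and medians, 269 values under alternatives kept to the same side or size and 38 did not. Signals that may be near background limit Ehhadh, Pex5 and the dimmer Pex19 and Acaa1a sets.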

Other observations

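Annotation with 2 symbols kept a pair of probe sets for Acaa1b and Acaa1a, thiolase genes of near-identical sequence, out of the member set. The _a_at set read 8.07, 6.96 and 8.12 in KLF15-null hearts, against 7.74, 7.75, 7.76 and 7.46 in WT hearts (difference 0.04, limma adjusted p = 0.912). The second KLF15-null array lay more than 1 log2 unit below the other KLF15-null arrays, which were above all WT arrays. The _s_at set averaged 9.25 in KLF15-null hearts and 8.61 in WT hearts (difference 0.63, limma adjusted p = 0.00229). Which of the 2 genes gave these signals cannot be told apart.

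Among other peroxisomal genes called lower, Crat, the carnitine acetyltransferase shared with mitochondria, had a difference of -1.33 (limma adjusted p = 0.000429) and Mlycd, malonyl-CoA decarboxylase, of -1.08 (limma adjusted p = 0.000606). The dimmer Crat set differed by -0.12 and was not called (limma adjusted p = 0.277). Among those not called on their brightest set, dimmer sets above the filter level were lower for some genes and higher for none. These were Dnm1l (difference -1.62), Dhrs4 (-1.41), Idh1 (-1.06), Acot6 (-0.40) and Tysnd1 (-0.29), with limma adjusted p from 2.11e-06 to 0.0165. All genes in this paragraph were named after their values were seen.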
